A study of Parasteatoda tepidariorum with 10 samples.

Results

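The 4 libraries described here, of 10 in the series, were chosen by their labels and follow chromatin accessibility in embryos of the house spider *Parasteatoda tepidariorum* from stage 2 to stage 3 when the gene *fuchi* is knocked down. Of these, 2 libraries came from wild-type embryos at stage 2, collected 12 h after egg laying, and 2 came from *fuchi* pRNAi embryos at stage 3, collected 18 h after egg laying. The assay was ATAC-seq: nuclei are treated with the enzyme Tn5, which cuts and tags the DNA that it can reach. All groups were whole embryos of the isolate Osaka. Each stage-2 library was made from 200 embryos and each stage-3 library from 40. For the pRNAi (parental RNA interference) groups, mated females were injected with about 2 µl of double-stranded RNA at 2 µg/µl, 3 times for *fuchi* and 4 times for *Pt-hh*, and eggs laid 13 to 24 days after the first injection were used. Both *fuchi* pRNAi libraries came from spiders of line 40, whereas stage-2 replicate 1 came from line 39 and replicate 2 from line 40. The labels name no injection for the wild type, so in this comparison stage, number of embryos, injection and collection date cannot be told apart from the knockdown. The 2 wild-type stage-3 and 2 *Pt-hh* pRNAi stage-3 libraries served as references for the same interval. Wild-type stage-3 replicate 1 came from line 39 and replicate 2 from line 40, and *Pt-hh* pRNAi replicate 1 from line 40 and replicate 2 from line 39. Only the *fuchi* pRNAi pair thus came from a single line, so line is partly mixed with the knockdown in these comparisons too.

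At stage 2 the spider embryo is a blastoderm, a single layer of cells around the yolk, and during stage 3 its cells shift towards one side to build the germ disc, from which the body forms. *fuchi* (*fuchi nashi*, gene model g26874, LOC107439682) encodes a GATA-like zinc-finger protein, a member of a family of transcription factors that bind DNA at GATA motifs and act in endoderm formation in many animals. *Pt-hh* encodes the spider Hedgehog ligand, a secreted signal that patterns the embryo. Accessible chromatin marks promoters and enhancers that proteins can reach, and it is remodelled as cells take on their fates. The part of *fuchi* targeted by the double-stranded RNA lies between the 2 primers below, which are shown because they define the treatment. Capitals mark the added recognition site of the enzyme EcoRI, and the bases after it anneal to *fuchi*.
forward primer: gGAATTCgacatgttctcacctatttccg
reverse primer: gGAATTCtgtaattgccttaagtccgatg
Peak lists hold no transcript levels, so the loss of *fuchi* RNA itself was not checked here.

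The deposited lists differed in length and in grain. The stage-2 lists held 51893 and 23985 peaks, and the *fuchi* pRNAi lists held 10616 and 13677. Each list was therefore cut to its 10616 strongest peaks by signal, the caller's area of significance along a peak, which makes a wide peak rank high. The commonest summit p-value was shared by 27.4% and 19.0% of the peaks used at stage 2, against 5.08% and 4.01% in *fuchi* pRNAi. The stage-2 pair also shared fewer peaks: 67.3% of the regions of replicate 1 were absent from replicate 2, whereas 34.0% of those of *fuchi* pRNAi replicate 1 were absent from its partner. Read totals were not used here, so depth is unknown and no counting interval is given. Replicates are biological replicates per the labels, and with 2 libraries per group the counts below carry no p-value.

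More regions were gained than lost between the wild-type blastoderm and *fuchi* pRNAi stage 3 at equal list length. Overlapping peaks of the 4 lists merged into 23705 regions. A total of 1794 regions (7.57% of all) opened, meaning that both *fuchi* pRNAi libraries and neither stage-2 library held a peak. A total of 450 regions (1.9% of all) closed, meaning that both stage-2 libraries and neither *fuchi* pRNAi library held one. A peak was present in all 4 libraries at 2461 regions, and in a single library at 13610 regions, or 57.4%. The stage-2 pair had 3420 regions in common against 6885 for the *fuchi* pRNAi pair, and closed regions made up 13.2% of the former and opened regions 26.1% of the latter.

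**Figure D1:**
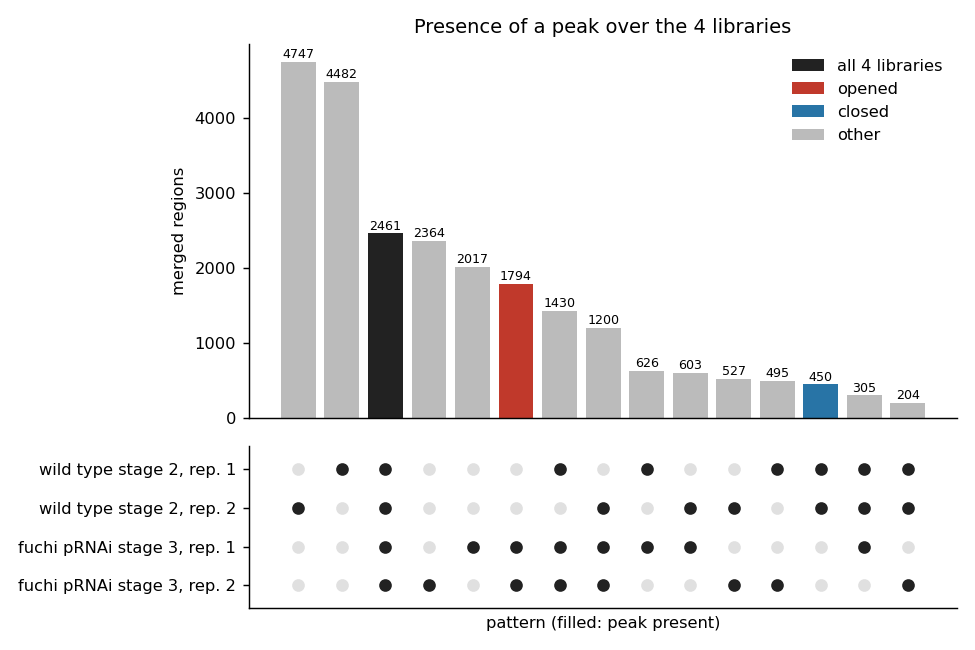
Number of merged regions (vertical axis) for each pattern of peak presence over the 4 libraries, with filled dots below marking the libraries that held a peak. The 2 tallest bars, 4747 and 4482 regions, are peaks of a single stage-2 library, and the opened bar (1794) is taller than the closed bar (450).

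The balance between opened and closed regions rests on the lists used. With all deposited peaks it turned to 733 opened and 3353 closed. It also turned when 1 stage-2 library stood for the group, to 3226 opened and 5208 closed without stage-2 replicate 1 and to 3019 and 4947 without replicate 2, and it was 5527 and 947 without *fuchi* pRNAi replicate 1 and 3859 and 646 without replicate 2. Of the 1794 opened regions, 597 (33.3%) had no peak anywhere in the full stage-2 lists, 902 had a weaker peak in 1 of them and 295 in both. Most of these weaker peaks came from the longest list: stage-2 replicate 1 held one at 1001 opened regions and replicate 2 at 491. Of the 450 closed regions, 393 (87.3%) had no peak in the full *fuchi* pRNAi lists either. The list of *fuchi* pRNAi replicate 1 was used whole and could not add any.

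The same rule gave changes of the same kind in the other stage-3 groups, which were set against the same 2 stage-2 libraries and are therefore not independent. At 10616 peaks per list, 2142 regions (8.8% of all merged regions) opened and 588 (2.42%) closed towards wild-type stage 3, and 2752 (11.5%) opened and 728 (3.05%) closed towards *Pt-hh* pRNAi. Opened regions were 31.8% and 35.7% of the regions common to those pairs, above the 26.1% in *fuchi* pRNAi, and closed regions were 17.1% and 21.2% of the stage-2 pair, above the 13.2% in *fuchi* pRNAi. In all 3 groups the opened count was above the closed count at this list length.

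The opened regions were of middling strength and widely spread. Their median signal percentile, on a scale where 100 is the strongest peak of a list, was 41.3 in *fuchi* pRNAi replicate 1 and 44.3 in replicate 2, and 13 of them reached a mean of 90 or more. They lay on 409 scaffolds, with at most 52 on a single scaffold, and had a median width of 518 bp. Closed regions had a median width of 658 bp, lay on 252 scaffolds and ranked at a median of 44.4 and 43.6 in the stage-2 lists. Regions with a peak in all 4 libraries were wider, at 745 bp, and stronger, with medians from 80.4 to 83.6. The rule by itself favours this, since they merge peaks of 4 lists and each peak had to pass its cut. Within 10 kb of such a constant region lay 7.64% of the opened and 12.4% of the closed regions, beside 7.86% of those seen in a single library.

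The strongest opened regions ranked near the top of the *fuchi* pRNAi lists. The region on scaffold NW_018383084.1 from 120868 to 122900 (assembly Ptep_2.0, as all positions here) ranked at the 95.0 and 96.9 percentiles in the *fuchi* pRNAi libraries and had no peak in the equal-length stage-2 lists. Its wild-type stage-3 replicates disagreed, with no peak in replicate 1 and the 95.6 percentile in replicate 2, and so did *Pt-hh* pRNAi, at 98.4 and 34.0. The second, on NW_018376213.1 from 10614067 to 10615359, ranked at 95.2 and 95.1 in *fuchi* pRNAi, at 91.6 and 90.6 in wild-type stage 3 and at 96.6 and 95.7 in *Pt-hh* pRNAi. This region was thus high in all 6 stage-3 libraries. It had low-ranking peaks in the full stage-2 lists, at the 10.8 and 46.0 percentiles.

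The third opened region, on NW_018381699.1 from 891473 to 891991, lay within 10 kb of LOC107444340, annotated as a neuronal acetylcholine receptor subunit, a ligand-gated ion channel of nerve cells. It ranked at 94.6 and 95.4 in *fuchi* pRNAi and at 85.0 and 89.2 in *Pt-hh* pRNAi, but at 38.4 in wild-type stage-3 replicate 1, and it had no peak in replicate 2. The full list of stage-2 replicate 1 held a peak there at the 74.9 percentile, not far below the cut of that list at 79.5. The eighth, on NW_018383931.1 from 714290 to 714812, had no peak in the full stage-2 lists and ranked at 92.5 and 89.5 in *fuchi* pRNAi, at 84.4 and 81.9 in wild-type stage 3 and at 87.6 and 89.5 in *Pt-hh* pRNAi. The other 4 of these 8 regions ranked between 88.6 and 98.1 in the *fuchi* pRNAi lists, and neither wild-type stage-3 list missed any of them. Each had a weaker peak in at least 1 full stage-2 list, at percentiles from 29.1 to 71.3.

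Of the 8 strongest closed regions, 7 had no peak in any equal-length stage-3 list. The first, on NW_018374158.1 from 26737 to 28270, ranked at 97.7 and 86.9 at stage 2 and had no peak in any of the 6 full stage-3 lists. The second, on NW_018378148.1 from 585315 to 586946, ranked at 86.4 and 94.0 and lay within LOC107442811, annotated as lachesin-like. Lachesin is a cell-surface protein of the immunoglobulin superfamily. Its weaker peaks in the full lists ranked at 4.0 in *fuchi* pRNAi replicate 2 and at 20.4 and 3.6 in *Pt-hh* pRNAi. The fifth, on NW_018378484.1 from 2072196 to 2073006, ranked at 87.9 and 86.6 at stage 2 and was likewise absent from all 6 full stage-3 lists. The exception was the sixth, on NW_018372039.1 from 6067226 to 6067650, which ranked at 80.0 and 90.4 at stage 2 and had a peak at the 62.8 percentile in wild-type stage-3 replicate 2.

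**Figure D2:**
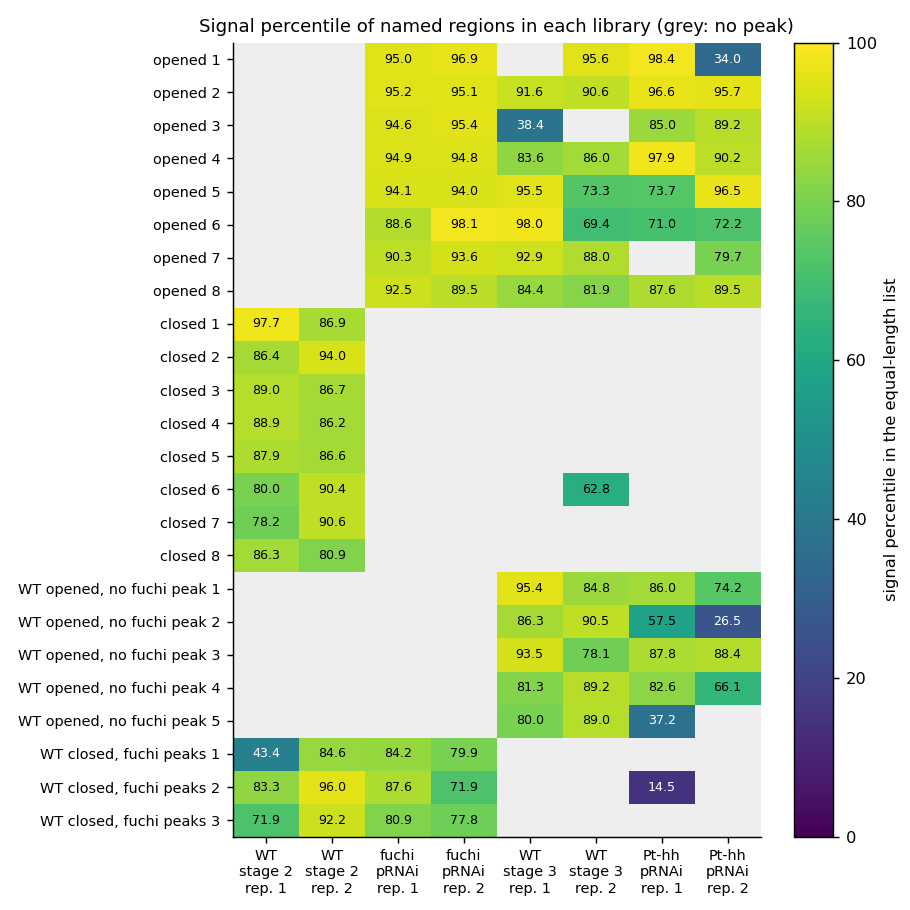
Signal percentile in each of 8 libraries (columns) for 24 regions (rows): the 8 strongest opened and 8 strongest closed regions, 5 regions opened in the wild type without a *fuchi* pRNAi peak and 3 closed in the wild type with peaks in the *fuchi* pRNAi pair. Grey cells mark no peak in the equal-length list, and the closed rows are grey in the stage-3 columns except for 1 cell at 62.8.

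To ask how far the wild-type change takes place after the knockdown, regions were classed in the wild type first, and the *fuchi* pRNAi lists were then read out. Over the 6 lists, 2128 regions opened in the wild type, present in both of its stage-3 libraries and in neither stage-2 library. After *fuchi* pRNAi 924 of them (43.4%) were present in both libraries, 689 (32.4%) in 1 library and 515 (24.2%) in neither. Per library the share was 52.8% and 66.4%, or 59.6% ± 9.60 (SD, n = 2). In *Pt-hh* pRNAi it was 80.1% and 79.2%, or 79.7% ± 0.598 (SD, n = 2). The *fuchi* pRNAi libraries were both below the *Pt-hh* pRNAi libraries, by 20.0 percentage points on average. This difference had an exact permutation p of 0.333 (two-sided), the smallest that 2 against 2 libraries allow, and an adjusted p of 0.417 over the 5 classes tested, so it could not pass a threshold.

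A gap was also seen among regions that closed. Of 588 regions that closed in the wild type, 341 (58.0%) were absent from both *fuchi* pRNAi libraries, 163 were present in 1 and 84 (14.3%) in both. A peak was still found at 32.5% and 23.8% of these regions in the *fuchi* pRNAi libraries, or 28.1% ± 6.13 (SD, n = 2), against 10.9% and 13.1%, or 12.0% ± 1.56 (SD, n = 2), in *Pt-hh* pRNAi (exact permutation p = 0.333, adjusted 0.417). At 635 regions of both stage-2 libraries with a peak in 1 wild-type stage-3 library, the shares were 76.4% and 66.8% in *fuchi* pRNAi and 46.9% and 54.3% in *Pt-hh* pRNAi. At equal list length the *fuchi* pRNAi libraries therefore held fewer of the regions that the wild type gained and more of those that it lost, without overlap with the *Pt-hh* pRNAi libraries. The second of these turned when the knockdowns were read from their full lists, which are longer in *Pt-hh* pRNAi (23045 and 19732 peaks) than in *fuchi* pRNAi: wild-type closed regions then had a peak in 32.5% and 33.3% of cases in *fuchi* pRNAi and in 42.9% and 40.3% in *Pt-hh* pRNAi, and the 635 regions in 76.4% and 76.5% against 88.7% and 86.8%. Wild-type opened regions had one in 52.8% and 74.95% against 95.8% and 93.0%.

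At equal list length, regions that were open throughout in the wild type did not show this gap. Of 2207 regions with peaks in both stage-2 and both wild-type stage-3 libraries, 94.9% and 95.5% had a peak in *fuchi* pRNAi and 94.1% and 95.9% in *Pt-hh* pRNAi, a difference of 0.227 percentage points (exact permutation p = 1). These regions were stronger than those that opened, at median wild-type stage-3 percentiles of 79.2 and 82.9 against 51.1 and 44.8. Weak ones, with a mean stage-3 percentile up to 25, numbered 60. Of these, 78.3% and 65.0% had a *fuchi* pRNAi peak and 48.3% and 61.7% a *Pt-hh* pRNAi peak. Above the 75 percentile (1218 regions) the shares were 97.9% and 98.7% against 98.9% and 99.6%. At 2399 wild-type stage-3 regions with a peak in 1 stage-2 library, the shares were 79.1% and 84.6% in *fuchi* pRNAi and 87.1% and 88.9% in *Pt-hh* pRNAi, between the values of the 2 outer classes. Read from the full lists, *fuchi* pRNAi was lower in both of these classes. The 2207 regions had a peak in 94.9% and 97.2% of cases against 99.4% and 99.3% in *Pt-hh* pRNAi. For the 2399 regions the shares were 79.1% and 89.4% against 97.5% and 96.7%.

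**Figure D3:**
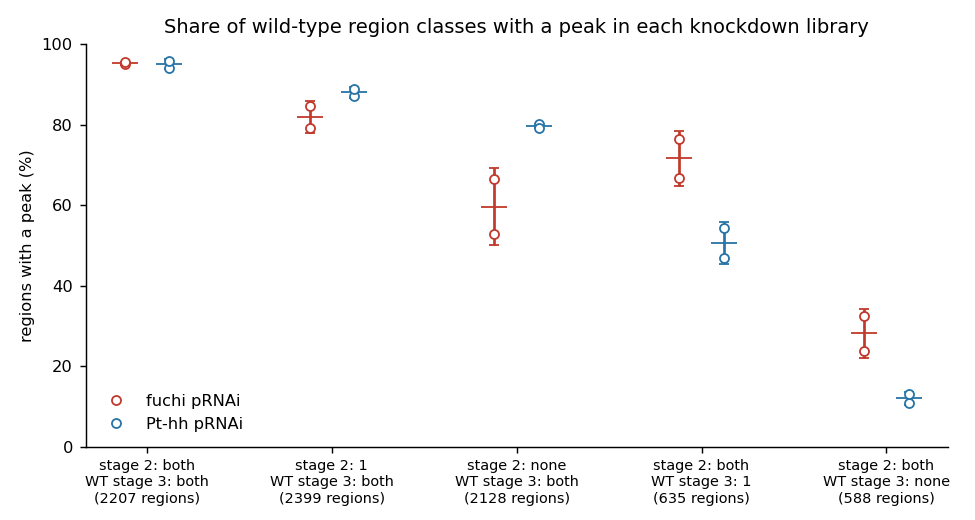
Percentage of regions with a peak in the equal-length list of each knockdown library (circles), with the mean and SD of the 2 libraries, for 5 classes of wild-type regions on the horizontal axis. The *fuchi* pRNAi values (52.8 and 66.4) lie below the *Pt-hh* pRNAi values (80.1 and 79.2) where the wild type opened, above them where it closed, and beside them at regions open throughout.

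The classes need 2 agreeing wild-type stage-3 libraries, and the spread between those libraries was wide. When replicate 1 alone defined 4673 opened regions, 45.5% had a peak in wild-type replicate 2, 39.3% and 44.9% in *fuchi* pRNAi, and 57.9% and 58.8% in *Pt-hh* pRNAi. When replicate 2 alone defined 4234, the shares were 50.3% in wild-type replicate 1, 34.3% and 46.6% in *fuchi* pRNAi and 53.0% and 49.6% in *Pt-hh* pRNAi. The second wild-type library thus lay above both *fuchi* pRNAi libraries each time, though in the first case the values of 45.5% and 44.9% lay closer together than the *fuchi* pRNAi pair did. Both *Pt-hh* pRNAi libraries lay above the second wild-type library in the first case and on either side of it in the second. The gap to *Pt-hh* pRNAi was therefore wider than the gap to the wild type in the first case. For regions closed by replicate 1 the wild-type partner still held a peak at 41.8%, against 50.5% and 45.0% in *fuchi* pRNAi and 25.0% and 27.4% in *Pt-hh* pRNAi. By replicate 2 it held one at 26.6%, against 44.6% and 31.1% in *fuchi* pRNAi and 21.7% and 27.7% in *Pt-hh* pRNAi. The wild-type partner thus lay between the knockdowns in the first case, and in the second it lay within the *Pt-hh* pRNAi pair and below the *fuchi* pRNAi pair. This readout was chosen after the data were seen.

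The figure of 43.4% depends on the lists: it was 25.9% with all deposited peaks, 66.3% without *fuchi* pRNAi replicate 1, and 25.8% and 27.1% without wild-type stage-3 replicates 1 and 2. For the closed regions, the 58.0% absent from *fuchi* pRNAi became 37.9% without wild-type stage-3 replicate 2. Among libraries of line 40 only, an alternative added after the data were seen, 45.1% and 55.1% of 6200 opened regions had a *fuchi* pRNAi peak and 60.8% a *Pt-hh* pRNAi peak, so the order was the same within the line. Of the closed regions of that line, 17.5% and 13.1% had a *fuchi* pRNAi peak and 9.43% a *Pt-hh* pRNAi peak.

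Strong wild-type regions were found more often in every knockdown library. Among regions opened in the wild type, 351 with a mean stage-3 percentile up to 25 had a peak in 37.9% and 45.9% of cases in *fuchi* pRNAi and in 63.2% and 62.7% in *Pt-hh* pRNAi. The 272 regions above the 75 percentile had one in 74.6% and 90.8% of cases in *fuchi* pRNAi and in 97.8% and 92.3% in *Pt-hh* pRNAi. In all 4 bins both *fuchi* pRNAi libraries lay below both *Pt-hh* pRNAi libraries, and they lay closest in the top bin, at 90.8% and 92.3%. Among regions closed in the wild type, those above the 75 percentile at stage 2 (59 regions) had a *fuchi* pRNAi peak in 50.8% and 45.8% of cases and a *Pt-hh* pRNAi peak in 18.6% and 20.3%.

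**Figure D4:**
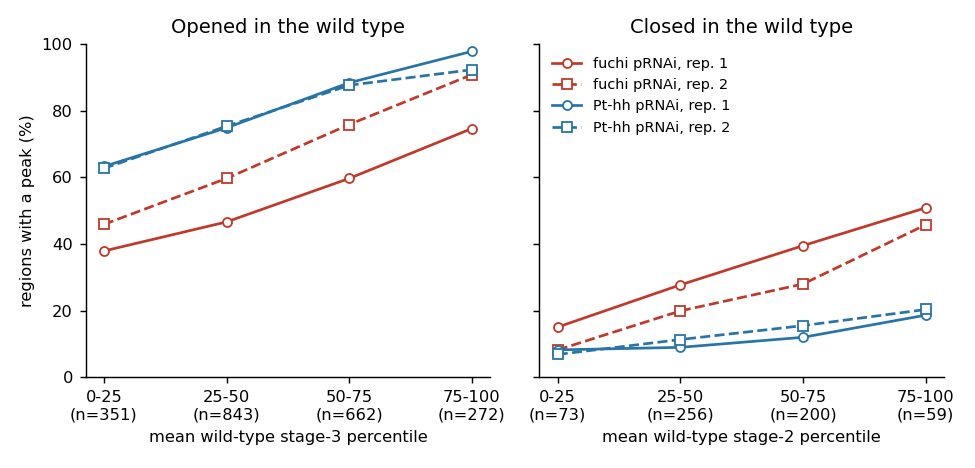
Percentage of regions with a peak in each knockdown library against the mean wild-type signal percentile in 4 bins, for regions opened (left) and closed (right) in the wild type, with the number of regions under each bin. Shares grow with wild-type signal in all 4 libraries, and the *fuchi* pRNAi lines lie below the *Pt-hh* pRNAi lines on the left and, on the right, at or above them.

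Of the 515 regions that opened in the wild type without a *fuchi* pRNAi peak, 237 (46.0%) had a peak in both *Pt-hh* pRNAi libraries, 161 in 1 and 117 (22.7%) in neither. They were seen less often there than the 2128 wild-type opened regions as a whole, of which 68.7% were in both *Pt-hh* pRNAi libraries and 9.35% in neither. The full list of *fuchi* pRNAi replicate 2 added a weaker peak at 106 of them. The strongest, on NW_018378439.1 from 3701655 to 3702323, ranked at 95.4 and 84.8 in wild-type stage 3 and at 86.0 and 74.2 in *Pt-hh* pRNAi, with a peak at the 18.9 percentile in the full list of *fuchi* pRNAi replicate 2. The second, on NW_018379665.1 from 779786 to 781116, overlapped the edge of LOC107451683, which encodes a protein like L7a of the large ribosomal subunit. It ranked at 86.3 and 90.5 in wild-type stage 3 and at 57.5 and 26.5 in *Pt-hh* pRNAi. The third, on NW_018368093.1 from 67745 to 68454, was absent from all 4 full stage-2 and *fuchi* pRNAi lists and ranked at 93.5 and 78.1 in wild-type stage 3 and at 87.8 and 88.4 in *Pt-hh* pRNAi. These 5 strongest regions all had a peak in at least 1 *Pt-hh* pRNAi library.

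Conversely, 84 regions that closed in the wild type were present in the *fuchi* pRNAi pair, and 41 of them (48.8%) had none in *Pt-hh* pRNAi, beside 80.6% of all 588 wild-type closed regions. A peak in both *Pt-hh* pRNAi libraries was found at 17.9% of the 84 and at 4.59% of the 588. The strongest 3 are named here after their values were seen. The region on NW_018383631.1 from 4259725 to 4260405 ranked at 43.4 and 84.6 at stage 2 and at 84.2 and 79.9 in *fuchi* pRNAi. The region on NW_018371426.1 from 434648 to 436422 ranked at 83.3 and 96.0 at stage 2 and at 87.6 and 71.9 in *fuchi* pRNAi, and its peaks were missing from the full wild-type stage-3 lists. The region on NW_018378148.1 from 581910 to 585091 lay within the lachesin-like gene and ranked at 71.9 and 92.2 at stage 2 and at 80.9 and 77.8 in *fuchi* pRNAi, next to the closed region of the same gene described above.

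Regions that opened in *fuchi* pRNAi were for the most part present in wild-type stage 3 as well, and more often in *Pt-hh* pRNAi. In the equal-length *Pt-hh* pRNAi lists, 1133 of the 1794 (63.2%) had a peak in both, 433 in 1 and 228 (12.7%) in neither. Of the 1794, 937 (52.2%) were found in both wild-type stage-3 lists of equal length, 524 in 1 and 333 (18.6%) in neither, and 112 (6.24%) were missing from both full wild-type stage-3 lists. Of these 112, 55 had a peak in both full *Pt-hh* pRNAi lists, 36 in 1 and 21 in neither, and 48 had no weaker stage-2 peak. The strongest of the 112, named after its values were seen, lay on NW_018381107.1 from 927363 to 928518. It ranked at 89.4 and 92.3 in *fuchi* pRNAi, was absent from both full stage-2 and both full wild-type stage-3 lists, and had a peak at the 24.1 percentile in *Pt-hh* pRNAi replicate 2. Of the 450 closed regions, 341 (75.8%) were absent from both equal-length wild-type stage-3 lists and 35 (7.78%) were in both. By the full wild-type stage-3 lists, 276 (61.3%) were absent from both and 58 (12.9%) were in both.

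Regions present in all 4 libraries were compared by signal rank, to ask whether accessible regions changed in strength. No region passed limma's test on quantile-normalised log2 signal at a Benjamini-Hochberg adjusted p of 0.05: the count was 0 of 2461 (0%), and the smallest adjusted p was 0.292. At an unadjusted p under 0.05 there were 191 regions (7.76%), 92 higher and 99 lower in *fuchi* pRNAi. The groups did not overlap in percentile at 534 regions higher (21.7%) and 443 regions lower (18%) in *fuchi* pRNAi. With 2 libraries a group, random order alone separates the groups at many regions, so these counts are not read as changes. The stage-2 replicates differed by a median of 15.3 percentile points per region and the *fuchi* pRNAi replicates by 6.43, beside 10.8 between the group means. The replicate values compare single libraries and the last compares means of 2, so their sizes cannot be set against each other directly. Without either *fuchi* pRNAi library a few calls appeared, 6 higher and 4 lower without replicate 1 and 4 higher and 3 lower without replicate 2. The lone library is assumed there to vary like the stage-2 pair.

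**Figure D5:**
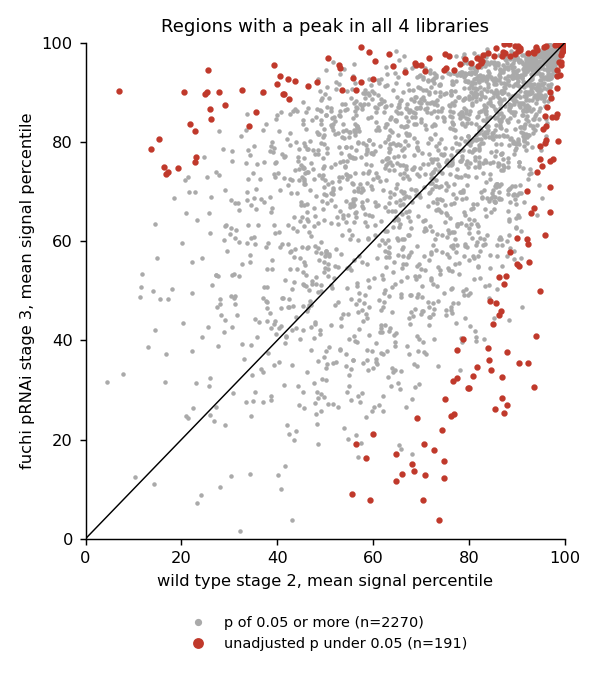
Mean signal percentile at wild-type stage 2 (horizontal) against *fuchi* pRNAi stage 3 (vertical) for the 2461 regions with a peak in all 4 libraries, with the line of equal rank. Red points are the 191 regions with an unadjusted limma p under 0.05, and none passed after adjustment.

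The regions with the smallest p show what sizes were seen, although none passed the test. On NW_018370221.1 from 574735 to 580408 the percentiles were 81.1 and 93.3 at stage 2 and 99.5 and 99.8 in *fuchi* pRNAi, a log2 difference in normalised signal of 2.42 ± 0.37 (SE; limma adjusted p = 0.292). Wild-type stage 3 was split there, at 99.9 and 25.0. On NW_018369509.1 from 448433 to 450648 they were 76.8 and 41.5 at stage 2 and 97.8 and 98.6 in *fuchi* pRNAi, with 98.9 and 99.0 in wild-type stage 3. In the other direction, the region on NW_018369445.1 from 86914 to 88513 ranked at 99.8 in both stage-2 libraries and at 98.7 and 98.3 in *fuchi* pRNAi, a log2 difference of -1.34 ± 0.19 (SE; limma adjusted p = 0.292). On NW_018376107.1 from 57954 to 59422 the percentiles were 91.6 and 95.5 at stage 2 and 40.3 and 21.1 in *fuchi* pRNAi. Of the 5 regions with the smallest p in each direction, those not given a p here had a limma adjusted p of 0.497. The region with the highest mean percentile, on NW_018376755.1 from 35926 to 39945, held the strongest peak of 3 of the 4 lists and the second strongest of *fuchi* pRNAi replicate 1, with signals of 31470 and 31331 at stage 2 and 15714 and 19310 in *fuchi* pRNAi.

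Gene positions on Ptep_2.0 were at hand for 284 genes. They come from a table of genes next to chromatin selected, on these libraries, for a difference of *fuchi* pRNAi from the wild type. Counts and single-region values at these genes are therefore not independent evidence. Within these genes or 10 kb of them lay 79 opened regions at 55 genes (19.4%) and 17 closed regions at 13 genes (4.58%), with 4 genes having both kinds. These were 9.72% and 2.09% of the 813 regions at the 284 genes, near the 7.57% and 1.9% of all merged regions. Of 19 genes listed for the GATA family, the endoderm and patterning, 5 had a position, and the other 14, *fuchi* itself included, were not analysed here.

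*Pt-GATA5* (g8337, LOC107456131), a GATA transcription factor gene of the family that acts in the endoderm of other animals, had 3 opened regions. In merges over all 8 lists they lay on NW_018368052.1. The region from 1355574 to 1356092, inside the gene, ranked at 17.0 and 56.5 in *fuchi* pRNAi, 71.7 and 79.3 in wild-type stage 3 and 86.2 and 81.9 in *Pt-hh* pRNAi, and was absent from both equal-length stage-2 lists. It was thus lower in both *fuchi* pRNAi libraries than in the other 4 stage-3 libraries. The paper names a *fuchi*-dependent peak in an intron of this gene at stage 3, so this lower rank is not independent evidence. The region just outside the gene, from 1354065 to 1354490, ranked at 25.5 and 64.8 in *fuchi* pRNAi and at 70.6 and 60.0 in *Pt-hh* pRNAi, with no peak in the equal-length wild-type lists of either stage. Its opened call rests on the cut, since the full lists held a peak at the 78.2 percentile in stage-2 replicate 1, cut at 79.5, and at 43.6 in wild-type stage-3 replicate 1. The third, from 1377732 to 1378254, ranked at 49.0 and 24.0 in *fuchi* pRNAi.

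g20850 (LOC107449642), an uncharacterised gene, had 1 region, overlapping the edge of the gene on NW_018378778.1 from 319412 to 320871. It had no peak in either full *fuchi* pRNAi list, whereas it ranked at 89.1 and 65.5 in wild-type stage 3 and at 83.3 and 95.5 in *Pt-hh* pRNAi. It is 1 of the 515 regions that opened in the wild type without a *fuchi* pRNAi peak, though the full list of stage-2 replicate 1 held a peak there at the 73.3 percentile.

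*Pt-hh* (g4322, LOC107451809), which extends on NW_018380730.1 from 55634 to 119382, had 11 regions within the gene or 10 kb of it. A peak was present in all 8 libraries at 4 of them. The region from 87143 to 87653 ranked at 91.0 and 72.9 at stage 2 and at 93.2 and 91.9 in *fuchi* pRNAi, and the region from 72140 to 72865 ranked at 84.6 and 79.1 and at 84.8 and 76.2. No region of the locus opened or closed by the rule. Beyond the last base of the gene, the region from 124781 to 125204 ranked at 46.6 and 55.0 in *fuchi* pRNAi, below the 77.2 and 83.1 of wild-type stage 3 and the 73.7 and 77.2 of *Pt-hh* pRNAi. The region from 127189 to 127627 opened in the wild type at 24.3 and 25.4 and had no *fuchi* pRNAi peak. In *Pt-hh* pRNAi it had no peak in replicate 1 and ranked at 2.4 in replicate 2. Its opened call rests on the cut, since the full list of stage-2 replicate 1, cut at 79.5, held a peak there at the 72.5 percentile. In the equal-length lists *Pt-Delta* (LOC107456525), a ligand of Notch, had no region, and g1125 (LOC107445669) had 1 peak, at the 11.0 percentile in stage-2 replicate 1. The full list of wild-type stage-3 replicate 1 held a peak there at the 1.4 percentile. The paper reports a *fuchi*-dependent stage-3 peak at the g1125 locus. No stage-3 peak was in the equal-length lists within 10 kb of that gene. The paper counted reads in merged peaks that were not cut to this length, so these results rest on unlike peak sets.

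Among the other genes with a position, a few are named here and in the next paragraph after their values were seen, and not by count alone. Other genes, such as LOC107457247, had 3 opened regions and are not described. LOC107450033, like *pangolin*, the transcription factor at the end of the Wnt pathway in *Drosophila*, had 4 opened regions and 1 closed region among its 28. Its strongest opened region, on NW_018371019.1 from 10419021 to 10420036, overlapped the edge of the gene and ranked at 78.3 and 87.0 in *fuchi* pRNAi and at 92.6 and 71.1 in wild-type stage 3. The weakest opened region ranked at 12.8 and 9.3 in *fuchi* pRNAi. The closed region was near the cut at stage 2, at 1.8 and 14.5, and ranked higher in wild-type stage 3, at 37.9 and 43.9. LOC107442811, the lachesin-like gene, had 4 closed regions and 1 opened region among its 20. LOC107445534, like *groucho*, a co-repressor of transcription, had 2 closed regions among its 15, and that on NW_018370835.1 from 1107831 to 1108525 ranked at 81.1 and 10.4 at stage 2 and was absent from all 6 full stage-3 lists.

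The T-box gene LOC107436847, annotated as TBX20-like and coding for a transcription factor, had 1 opened and 1 closed region among its 12. The closed region, on NW_018369480.1 from 182213 to 182707, ranked at 36.8 and 60.6 at stage 2, at 85.1 and 76.5 in wild-type stage 3 and at 78.4 and 51.9 in *Pt-hh* pRNAi. It had no peak in either full *fuchi* pRNAi list, and so was missing from these libraries alone among the 8.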

How the data were processed

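The authors trimmed reads with Trim Galore, aligned them to the assembly Ptep_2.0 with Bowtie2 2.2.5, removed duplicates with Picard and called peaks per library with Genrich 0.6. The deposited signal is the area of significance over a peak, not scaled between libraries, and the deposited −log10 p-value is that of the summit. Adapter shifts were set by the authors.

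Lists were cut to 10616 peaks by signal, and peaks overlapping by 1 bp were merged. Groups came from the labels. Shared regions were tested with limma 3.58.1 (R 4.3.3) on quantile-normalised log2 signal, the strongest peak per library, 4 libraries, trended eBayes, no block, after a check on simulated data. Shares were compared by exact permutation tests over libraries.

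Regions named are the 8 strongest opened and closed, the 5 shared with the smallest p each way, the 3 strongest shared, the 5 strongest opened in the wild type without a *fuchi* pRNAi peak, and those said to be named after their values were seen. Members, lists and tests were chosen with earlier results of these data known. Gene positions came from the annotation columns of a table of the study. Motifs and base composition were not analysed here, since no genome of that assembly was used. The stage-1 libraries were not used here. Alternatives were list length, ranking, overlap, absence, scale, block, line and each replicate left out.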

Additional observations from a re-analysis of the deposited data

How the results depend on the processing

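With all deposited peaks the counts were 733 opened and 3353 closed regions, the share of wild-type opened regions with both *fuchi* pRNAi peaks was 25.9% and that of wild-type closed regions without one was 80.5%. With lists of 5308 peaks 875 regions opened and 225 closed. Requiring absence from the full lists left 597 opened regions and gave 65.9% for the wild-type closed regions. With line 40 only, 3226 regions opened and 5208 closed, and 76.9% of wild-type closed regions had no *fuchi* pRNAi peak. Leaving out each replicate in turn gave 3019 to 5527 opened regions, 646 to 5208 closed regions, 25.8% to 66.3% for the opened share, 37.9% to 84.1% for the closed share, and 0 to 6 higher and 0 to 4 lower shared regions. A group of 1 library needs no agreement between replicates, which by itself admits more regions. Windows of 200 bp around summits gave 2 lower shared regions by limma. Of 72 recomputed values, 39 stayed within the spread or 1.5 times the count. With the replicate number as a block in limma the counts stayed at 0 higher and 0 lower, with 151 regions at an unadjusted p under 0.05. Same-numbered deviations had a correlation of -0.018, so the numbers are not taken as pairs. Depth is unknown, and 2 libraries a group limit every comparison.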
